A study of Bos taurus with 16 samples.

Results

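Interferon-stimulated genes were followed in the uterine lining, the endometrium, in biopsies from 4 fertile cows after they had calved. The genes were a list of 54 names, and a gene counted as measured where a probe that is not a control carried exactly that name on the array. This held for 48 of the 54 genes, with 103 of the array's 43653 probes, and 99 of those probes passed the filter on dim signal, which kept a probe if 4 or more of the 16 arrays read it well above background. All 48 measured genes had at least 1 probe that passed, and each is described by its brightest probe.

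Each cow was sampled at 4 times, named here by the nominal days 10, 30, 50 and 100, with true sampling on days 9 to 10, 29 to 30, 49 to 51 and 99 to 100. The cows were not treated with any agent that the labels name, and their breed, age and pregnancy state at each biopsy are not given in the sources used here. At each time several pieces of the uterine horns were taken with biopsy forceps, so a sample is bulk tissue in which fewer cells of a type and less RNA per cell cannot be told apart. Total RNA was labelled with a single dye, Cy3, and put on 1 array per cow and time, which gives 4 arrays per time and 16 in all.

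A level below is the log2 processed signal of a probe relative to the 75th percentile of its array, so 1 unit is a doubling, and levels of different probes are not compared with each other. A difference is the fitted log2 difference between times within cows, from limma with terms for time and cow, given with its standard error (SE). It was called where its Benjamini-Hochberg adjusted p over all 33174 tested probes was under 0.05.

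Interferons are signalling proteins of the antiviral defence. Type I interferons bind the IFNAR1 and IFNAR2 receptor chains and act through factors that include STAT2 and IRF9 to switch on genes whose products block viral replication, while interferon gamma, made mainly by T and NK cells, induces IRF1, the guanylate-binding proteins, the chemokines CXCL9, CXCL10 and CXCL11, and the loading of MHC class I. In bovine endometrium many of these genes are best known for their response to interferon tau, the signal by which a ruminant conceptus announces itself to the mother.

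No spot was saturated, between 60.9% and 76.9% of probes were well above background, and pairs of arrays of the same time had an r across probes between 0.833 (at day 100) and 0.978. The median processed signal ran from 51.06 to 154.3, and the lowest values, 51.06 and 54.79, were those of cows 3 and 2 at day 100. All 7 measured epithelial markers and 6 of 7 stromal markers were well above background on all 16 arrays. The epithelial list varied between biopsies, from a median of -2.9 (log2, relative to each gene's mean over 16 arrays) in cow 2 at day 10 and -2.82 in cow 2 at day 100 to 2.43 in cow 1 at day 100. The cows are separate animals, each with its own slide, so the spread between cows also holds differences between slides.

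The probes are the measuring sequences of these results, and a few decide how the values can be read. ISG15, the ubiquitin-like protein that is attached to other proteins after interferon exposure, had a pair of probes of 60 bases that share 28 bases, shown in capitals. Both lie on the minus strand of chromosome 16 of build HGSC Btau_3.1, the first at chr16:48718882-48718941 and the second at chr16:48718914-48718973.
ISG15 brightest probe: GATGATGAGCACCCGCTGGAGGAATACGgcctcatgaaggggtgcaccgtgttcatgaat
ISG15 second probe: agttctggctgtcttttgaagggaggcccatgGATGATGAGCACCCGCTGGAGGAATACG
The next pair is shown because HERC5 and HERC6, ligases of the same family, resemble each other at the probed site, and how far a probe takes up RNA of the other gene was not tested. Aligned over 45 bases, the HERC5 probe (chr6:37076346-37076405, minus strand) and the second HERC6 probe (chr6:37128644-37128703, minus strand) had 36 identical bases, 80% of the stretch, which are in capitals.
HERC5 probe: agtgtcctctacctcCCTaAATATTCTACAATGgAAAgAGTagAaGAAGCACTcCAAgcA
HERC6 second probe: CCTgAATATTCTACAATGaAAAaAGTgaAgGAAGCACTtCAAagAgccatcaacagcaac
The probes of CXCL9 (chr6:94105453-94105512, minus strand) and TAP1 (chr23:7386309-7386368, minus strand) are shown because CXCL9 was the single gene of the list with a called difference and TAP1 stands for the antigen-loading genes, whose course differed between cows.
CXCL9 brightest probe: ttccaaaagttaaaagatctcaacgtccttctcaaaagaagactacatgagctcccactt
TAP1 brightest probe: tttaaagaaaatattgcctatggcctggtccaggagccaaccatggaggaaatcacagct

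Across the list, day 30 was the low point in 3 of the 4 cows, and no single gene apart from CXCL9 passed the test in any of the 6 differences. From day 10 to day 30, 45 of 48 genes had a negative difference, with a median of -0.86 against -0.01 over all tested probes. From day 30 to day 50, 44 of 48 had a positive difference, with a median of 1.03 against 0, and from day 30 to day 100, 45 of 48 did, with a median of 1.22 against -0.05. Medians over the genes were 0.24 for day 50 against day 10, 0.3 for day 100 against day 10 and 0.1 for day 100 against day 50. The differences from day 30 share the day 30 arrays and those from day 10 share the day 10 arrays, so they are not independent of each other.

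Markers of the tissue layers differed over the same intervals. Of the smooth muscle list, 7 of 7 genes had a positive difference for day 30 against day 10, with a median of 1.41 and values by cow of 3.96, -0.01, -1.8 and 3.13 in cows 1 to 4. All 7 were negative for day 50 and for day 100 against day 30, with medians of -1.46 and -1.69. The epithelial list had a median of -0.06 for day 30 against day 10, with cows at -1.88, 2.58, 1.52 and -3.08, and of 1.53 for day 50 against day 30, with 7 of 7 positive. For day 100 against day 30 the epithelial median was 0.91, with 6 of 7 positive. Limma called no gene of either list in these differences, where 0 passed the unadjusted threshold apart from 1 smooth muscle gene, lower at day 100 than at day 30. The part of tissue make-up in the levels of the 48 genes was not tested.

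Called genes were few in the list and in these comparisons generally. Of the 48 genes, 0 were called for day 30 against day 10 by limma (16 lower at an unadjusted p under 0.05), where 0.419% of all tested probes were called, 0.407% lower, and 8.19% were lower at the unadjusted threshold. For day 50 against day 10 the count was 0 of 48 (1 higher and 2 lower unadjusted), with 1.65% of all probes called and 8.87% higher and 9.71% lower at the unadjusted threshold. For day 100 against day 10 it was 1 of 48, CXCL9, which fell, with 4.6% of all probes called and 3.14% called lower.

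Between the later times limma called no probe at all, 0% of 33174 in each of the 3 differences. At the unadjusted threshold 18 of the 48 genes were higher at day 50 than at day 30 (4.97% of all probes) and 25 were higher at day 100 than at day 30 (5.55% of all probes), while 0 of 48 passed it for day 100 against day 50 (0.956% of all probes higher and 2.19% lower). The moderated F test over the 4 times called 0 of 48 genes (12 unadjusted), with 1.03% of all probes called and 18.9% under 0.05 unadjusted. Under the other settings that were run, the called genes of the list were CXCL9, GBP4 and PARP12.

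Single arrays moved these unadjusted counts. The 16 genes lower at day 30 than at day 10 became 5 without cow 4 at day 10, 9 without cow 1 at day 10, and 6, 10 and 9 without cows 1, 3 and 4 at day 30, and they were 4 without cow 1 and 3 without cow 4 altogether. The 18 genes higher at day 50 than at day 30 became 10, 11 and 10 without cows 1, 3 and 4 at day 30, 10 and 8 without cows 1 and 2 at day 50, and 6 without cow 1. The 25 genes higher at day 100 than at day 30 became 10 without cow 3 at day 100, 13, 16 and 14 without cows 1, 3 and 4 at day 30, and 16 and 8 without cows 1 and 3. Other omissions raised the counts of 16, 18 and 25, to at most 23, 24 and 29. The medians kept their sign in all 3 of these differences. That of day 30 against day 10 was -0.54 without cow 4 at day 10, -0.51 without cow 4 and -1.31 without cow 2. That of day 100 against day 30 was 0.65 without cow 3 at day 100 and 0.73 without cow 3.

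Counts by cow show how evenly the genes moved. From day 30 to day 50, 31 of 48 genes were higher in 4 of 4 cows (12.1% of all probes), and for 8 of them every day 50 array lay above every day 30 array (4.11% of all probes): ISG15, LGALS3BP, DDX58, IRF7, PARP9, PARP12, PARP14 and GBP4. From day 30 to day 100, 20 genes were higher in 4 of 4 cows (6.49% of all probes), and the arrays of IFI35, PARP9 and PARP12 did not overlap (1.32% of all probes). From day 10 to day 30, 14 genes were lower in 4 of 4 cows (12.8% of all probes), and the arrays of CXCL9 and CXCL10 did not overlap (4.89% of all probes). For day 100 against day 50 no gene of the list moved the same way in 4 of 4 cows, where 6.26% of all probes were higher and 6.27% lower in all 4.

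Cows followed different courses. Day 30 held the lowest of a cow's 4 arrays for 37 of 48 genes in cow 1, 28 in cow 3 and 38 in cow 4, where the shares of all probes were 24.1%, 15% and 36.9%, but for 14 in cow 2 (23% of all probes). The highest array of cow 4 was that of day 10 for 40 genes (28.9% of all probes), and that of cow 3 was day 100 for 40 genes (28.4% of all probes). Cow 2 was highest at day 50 for 29 genes (25.6% of all probes), and cow 1 was divided between day 50 with 21 genes, day 10 with 15 and day 100 with 12. Differences between cows took a median of 36.5% of a gene's variance in the list and 21.4% over all tested probes, and time took 26.8% and 26.2%.

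**Figure D1:**
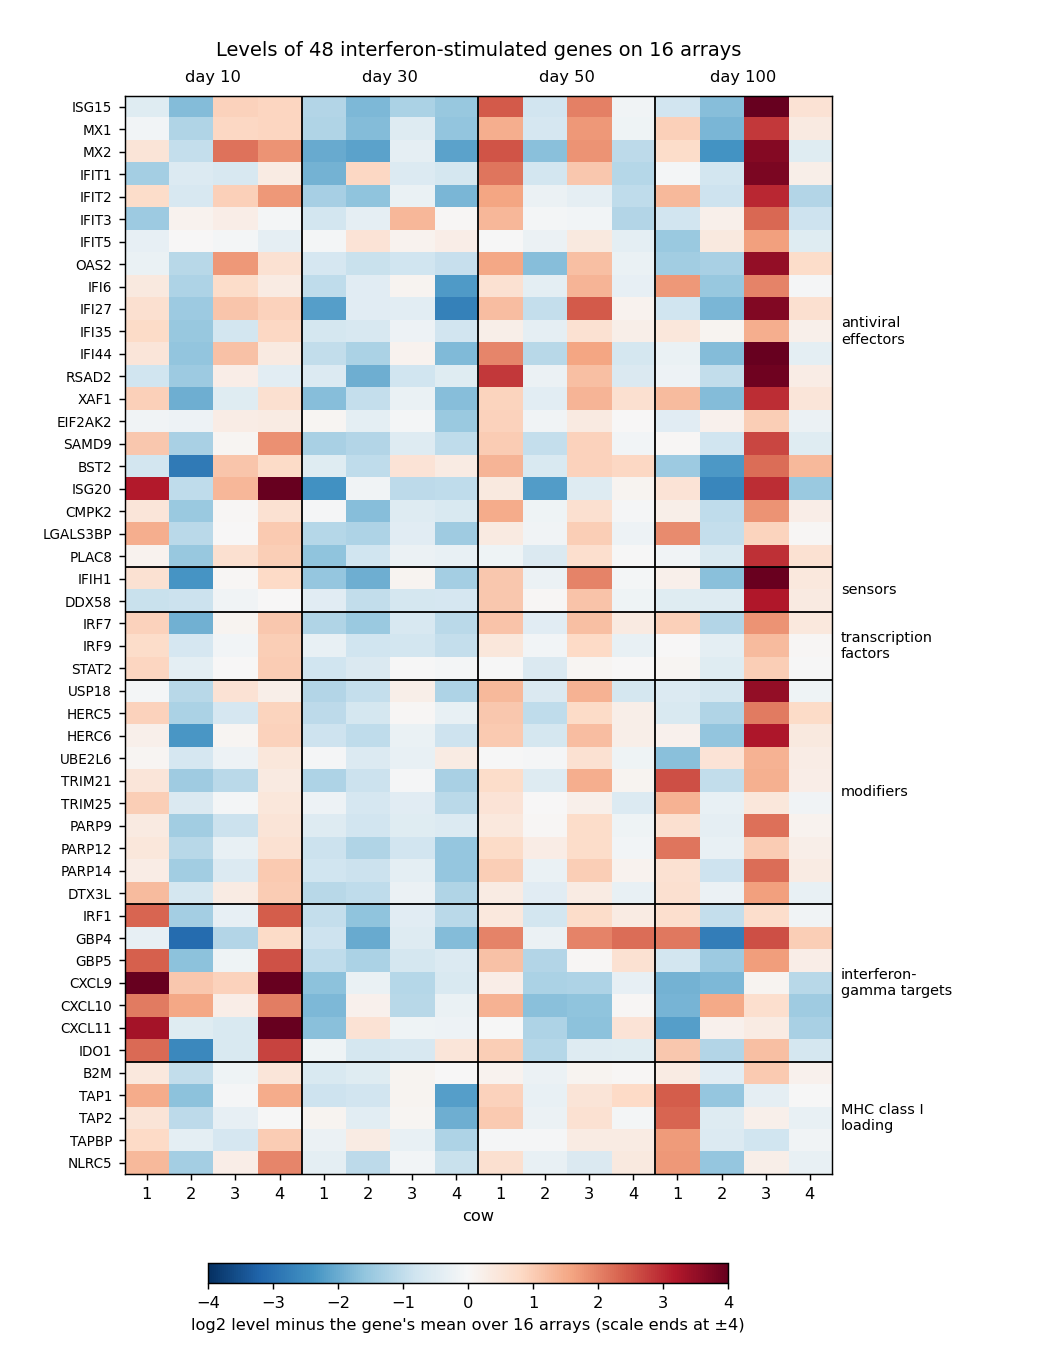
Levels of the 48 measured genes (rows, grouped by role) on the 16 arrays (columns, grouped by nominal day and numbered by cow), as log2 level minus the gene's own mean over the arrays. Cow 3 at day 100 held the highest array for 32 of the 48 genes, most of them antiviral effectors, while CXCL9, CXCL11 and other interferon-gamma targets were highest in cows 1 and 4 at day 10.

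The antiviral effectors, whose products degrade or block viral RNA and proteins, were 25 of the 54 listed genes, and 21 of them were measured. Their median difference was -0.96 for day 30 against day 10, with 18 of 21 negative, 1.22 for day 50 against day 30, with 19 of 21 positive, and 1.4 for day 100 against day 30, with 20 of 21 positive. None of the 21 was called by limma in any difference. At the unadjusted threshold 6 were lower at day 30 than at day 10 (8.19% of all probes). Higher than at day 30 were 9 at day 50 (4.97% of all probes) and 12 at day 100 (5.55% of all probes). Without cow 3 at day 100 the last count was 3 and the median for day 100 against day 30 was 0.8.

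MX1, a GTPase that traps viral nucleocapsids, stood in cows 1 to 4 at 1.63, 0.54, 2.58 and 2.6 at day 10, at 0.54, 0.02, 1.23 and 0.17 at day 30, at 3.21, 1.07, 3.48 and 1.59 at day 50, and at 2.7, -0.08, 4.59 and 2.1 at day 100. Every cow was lower at day 30 than at day 10 and higher at day 50 than at day 30, but the levels of the times overlapped because cow 2 was low throughout. The differences were -1.35 ± 0.51 (SE) for day 30 against day 10 and 1.85 ± 0.51 for day 50 against day 30, with adjusted p of 0.272 and 0.435 in limma.

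ISG15, chosen for description after its values were seen, stood at 0.94, -0.29, 2.36 and 2.3 in cows 1 to 4 at day 10 and at 0.28, -0.35, 0.16 and -0.07 at day 30. At day 50 it stood at 3.9, 0.67, 3.45 and 1.3, and at day 100 at 0.67, -0.27, 5.97 and 2.01. The day 30 arrays lay close together and below all day 50 arrays, and the day 100 arrays spread from below 0 to the highest level of all 16. The difference was 2.33 ± 0.87 for day 50 against day 30 (limma, adjusted p 0.501) and 2.21 ± 0.86 for the second ISG15 probe shown above, whose 4 levels at day 100 were 1, -0.2, 5.73 and 1.86.

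MX2, the other MX GTPase, was dim, with a signal well above background on 13 of 16 arrays. Its levels in cows 1 to 4 were -3.86, -5.32, -2.19 and -2.56 at day 10, -6.38, -6.52, -4.73 and -6.51 at day 30, -1.85, -6.05, -2.56 and -5.4 at day 50, and -3.62, -6.75, -0.7 and -4.84 at day 100. Of the 4 day 30 arrays, 2 were well above background. MX2 was lower in 4 of 4 cows at day 30 than at day 10, with a difference of -2.55 ± 0.76 and an adjusted p of 0.172 in limma.

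LGALS3BP, a secreted galectin-binding glycoprotein, was lower in 4 of 4 cows at day 30 than at day 10. Its mean level was 2.13 ± 1.13 (SD, n = 4) at day 10, 0.71 ± 0.42 at day 30, 2.02 ± 0.55 at day 50 and 2.25 ± 1.2 at day 100. The 4 day 30 arrays, at 0.64, 0.54, 1.32 and 0.36, lay below the 4 day 50 arrays at 2.13, 1.63, 2.75 and 1.57. The difference between those times was 1.3 ± 0.47 with an adjusted p of 0.494 in limma.

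IFI6, a mitochondrial protein that opposes cell death, had a mean level of 4.13 ± 0.87 at day 10, 3.16 ± 1.02 at day 30, 4.38 ± 0.84 at day 50 and 4.61 ± 1.65 at day 100 (SD, n = 4). Its highest arrays were cow 3 at day 100 with 6.07 and cow 1 at day 100 with 5.8, and its lowest was cow 4 at day 30 with 1.8. None of its differences was called, and the smallest adjusted p in limma was 0.32, for day 100 against day 30.

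The other effectors ranged in their day 30 against day 10 difference from -3.02 in ISG20, an exonuclease that degrades single-stranded RNA, to 0.4 in IFIT5. IFIT5 was higher in 4 of 4 cows at day 30, and IFIT3 and BST2 also had positive differences, of 0.35 and 0.27. From day 30 to day 50 the differences of IFIT5 and IFIT3 were -0.28 and -0.08, and that of BST2 was 0.78. ISG20, named after its values were seen, stood at -0.59, -4.78, -2.43 and 0.25 in cows 1 to 4 at day 10, so cows 1 and 4 were high there. By the brightest probe of each gene, ISG20 was the only antiviral effector with its highest array at day 10. Several effectors were dim: OAS2, which makes the messenger that activates RNase L, was well above background on 6 of 16 arrays, IFIT1 on 12, ISG20 on 14 and IFIT2 on 15, and the rest on all 16 apart from MX2.

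Of the 6 listed genes with no probe of their own name, 4 were on the array under another name, as their RefSeq accessions show in the ARS-UCD2.0 gene table. They are outside the counts above. Probes named OAS1 belong to OAS1X, OAS1Y and OAS1Z, the bovine copies of the OAS1 synthetase, and a probe named LGP2 belongs to DHX58, a regulator of RNA sensing. In the ungapped alignment with the most matching bases, no pair of OAS1 probes shared more than 41.5% of the aligned bases. Alignments with gaps were not compared. OAS1Y, chosen for description after its values were seen, was well above background on all 16 arrays and stood at 3.32, 2.16, 3.96 and 3.77 in cows 1 to 4 at day 10, at 3.05, 2.47, 2.61 and 1.26 at day 30, at 4.58, 3.2, 5.03 and 3.14 at day 50, and at 3.29, 2.23, 5.92 and 2.87 at day 100. Every day 50 array lay above every day 30 array, and the difference was 1.64 ± 0.53 with an adjusted p of 0.471 in limma. OAS1X was also measured on all 16 arrays, with a range from -4.72 in cow 4 at day 30 to 0.2 in cow 3 at day 100, and the brighter OAS1Z probe on 5 arrays. DHX58 ranged from -5.14 in cow 1 at day 30 to -1.66 in cow 3 at day 100. IFI44L and ZBP1 were not analysed here.

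The nucleic acid sensors detect viral RNA in the cytosol, and IFIH1 and DDX58, the helicases also known as MDA5 and RIG-I, were the 2 of 4 listed sensors measured under their own names. IFIH1 stood at -0.95, -3.94, -1.51 and -0.78 in cows 1 to 4 at day 10, at -3.11, -3.53, -1.46 and -2.93 at day 30, at -0.5, -1.8, 0.41 and -1.64 at day 50, and at -1.38, -3.23, 2.38 and -1.15 at day 100. All 4 cows were higher at day 50 than at day 30, with a difference of 1.88 ± 0.67 and an adjusted p of 0.488 in limma. DDX58 had its 4 day 30 arrays at -0.18, -0.73, -0.44 and -0.4 and its day 50 arrays at 1.35, 0.33, 1.42 and 0.1, with no overlap, and a difference of 1.24 ± 0.57 (adjusted p 0.536 in limma). It stood at 3.46 in cow 3 at day 100, and no other array of DDX58 passed 1.42.

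The transcription factors IRF7, IRF9 and STAT2 carry the type I signal to the genome, IRF7 as the amplifier of interferon production and the others as parts of the complex downstream of the receptor. All 3 were lower at day 30 than at day 10 at the unadjusted threshold (8.19% of all probes) and none was called. The differences were -1.15 ± 0.43 for IRF7, -0.94 ± 0.38 for IRF9 and -0.74 ± 0.31 for STAT2, with adjusted p of 0.276, 0.299 and 0.313 in limma. IRF9 and STAT2 were lower in 4 of 4 cows and IRF7 in 3 of 4, with cow 2 at -2.03 on day 10. IRF7 stood at -1.3, -1.59, -0.74 and -1.19 in cows 1 to 4 at day 30 and at 1.04, -0.55, 1.1 and 0.25 at day 50, all of the latter above all of the former. Its difference between these times was 1.66 ± 0.43 with an adjusted p of 0.435. IRF9 differed by 0.9 ± 0.38 and STAT2 by 0.24 ± 0.31 over the same interval, each higher in 4 of 4 cows and neither called.

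The modifiers attach or remove ubiquitin, ISG15 or ADP-ribose, and all 10 listed genes were measured. Their median difference was -0.58 for day 30 against day 10, with 10 of 10 negative, 1 for day 50 against day 30 and 1.29 for day 100 against day 30, each with 10 of 10 positive. None was called by limma in any difference, and 3, 5 and 7 of the 10 passed the unadjusted threshold in these comparisons. The shares of all probes that passed it in the same directions were 8.19%, 4.97% and 5.55%. Without cow 3 at day 100 the last count was 4 and the median 0.82.

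PARP12, an ADP-ribosyltransferase with antiviral activity, stood at -1.06, -2.63, -1.8 and -0.9 in cows 1 to 4 at day 10, at -2.38, -2.72, -2.27 and -3.07 at day 30, at -0.75, -1.23, -0.79 and -1.61 at day 50, and at 0.62, -1.81, -0.5 and -1.29 at day 100. Every array of days 50 and 100 lay above every array of day 30. The differences from day 30 were 1.51 ± 0.39 for day 50 and 1.87 ± 0.39 for day 100, with adjusted p of 0.435 and 0.26 in limma, and 0.0886 in its F test.

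DTX3L, a ubiquitin ligase that works as a pair with PARP9, was lower in 4 of 4 cows at day 30 than at day 10 by its brightest probe, with means of -3.43 ± 0.88 and -4.78 ± 0.44 (SD, n = 4) and a difference of -1.35 ± 0.39 (adjusted p 0.159 in limma). The next brightest DTX3L probe gave -0.41 ± 0.48 (adjusted p 0.723 in limma). By that probe cows 2 and 3 were higher at day 30, at -5.15 and -4.28 against -5.19 and -4.85 at day 10. The dimmest DTX3L probe gave -1.01 ± 0.33 (adjusted p 0.211 in limma). TRIM25, the ligase that ubiquitinates DDX58, was also lower in 4 of 4 cows, with means of 3.35 ± 0.67 and 2.56 ± 0.37. At day 50 and day 100 TRIM25 stood at 3.2 ± 0.46 and 3.5 ± 0.75, and none of its differences was called.

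HERC5 and HERC6, whose probe sequences are set side by side above, ran from -2.3 to 1.05 and from -3.45 to 2.14, each lowest in cow 2 at day 10 and highest in cow 3 at day 100. The second HERC6 probe, the one that resembles the HERC5 probe, gave differences of 1.17 ± 0.58 for day 50 against day 30 and 1.13 ± 0.58 for day 100 against day 30, beside 1.18 ± 0.61 and 1.29 ± 0.61 for the brightest HERC6 probe. USP18, the protease that removes ISG15 from its targets, likewise named after its values were seen, stood at 2.33 in cow 3 at day 100 and at or below 0.23 on the other 15 arrays.

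**Figure D2:**
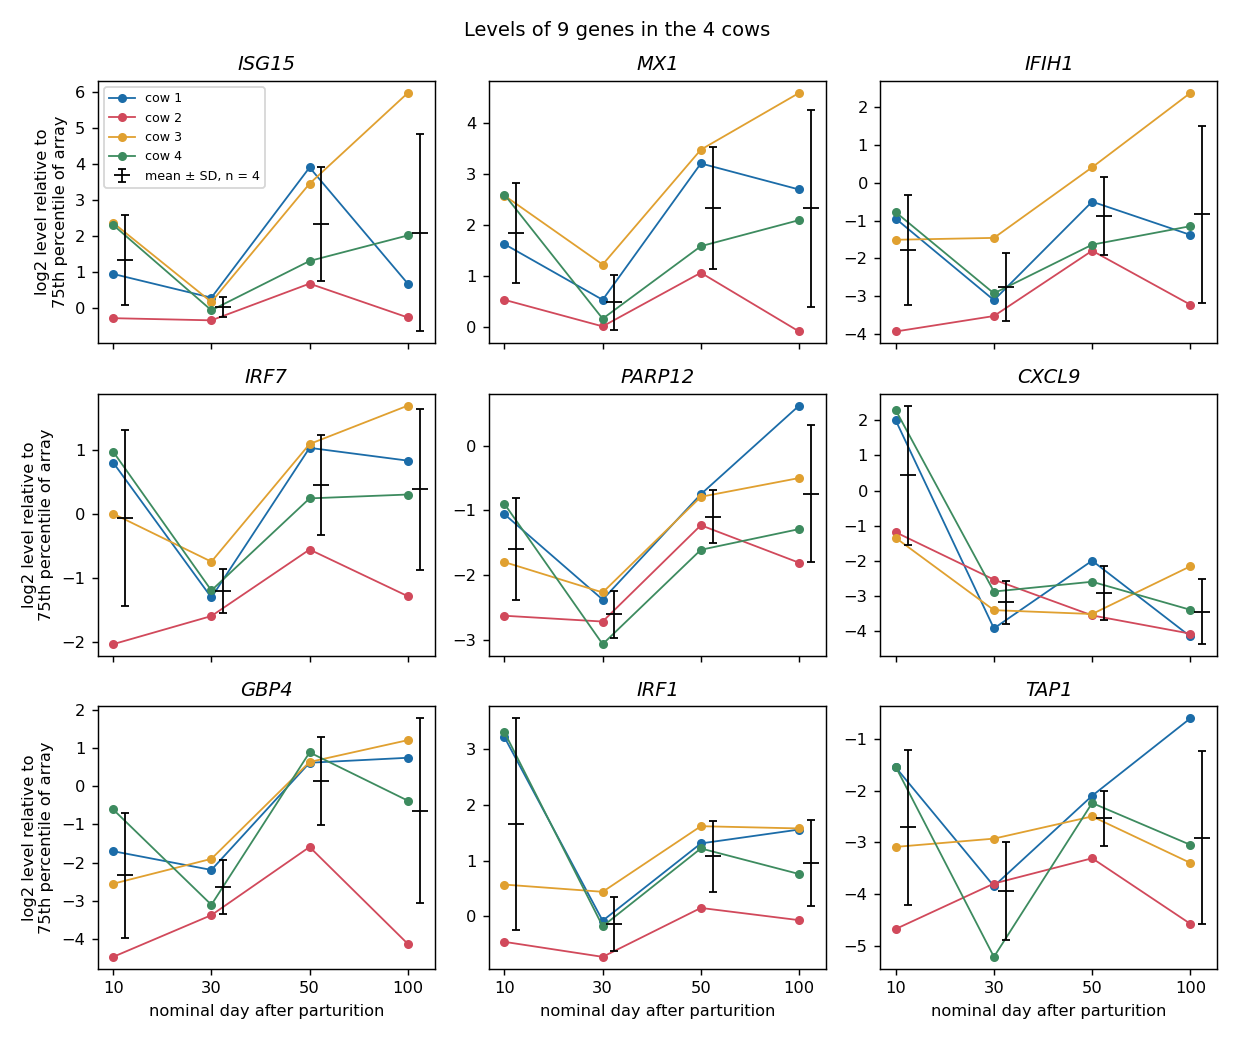
Levels (log2, relative to the 75th percentile of the array) of 9 genes at the 4 nominal days, which are spaced evenly on the axis, with a coloured line per cow and black marks for the mean and SD of the 4 cows. ISG15, MX1, IFIH1 and IRF7 are higher at day 50 than at day 30 in every cow and highest of all in cow 3 at day 100, while CXCL9 and IRF1 are highest in cows 1 and 4 at day 10.

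The interferon-gamma targets, all 7 of which were measured, had a negative median difference from day 10 at every later time over the 4 cows, but not in each cow. Their median difference was -1.8 for day 30 against day 10, with 7 of 7 negative, -0.74 for day 50 against day 10 and -0.84 for day 100 against day 10, with 6 of 7 negative in each. By cow, the medians in cows 1 to 4 were -3.43, 0.38, -0.13 and -3.09 for day 30 against day 10. They were -1.3, 0.45, 0.09 and -2.09 for day 50, and -3.12, 0.34, 1.01 and -3.39 for day 100. From day 30 the medians over the 4 cows were 0.28 to day 50 and 0.47 to day 100. With a cow or an array left out, the median ranged from -2.36 to -1.11 for day 30 against day 10 (-1.11 without cow 1 and -1.19 without cow 4). It ranged from -1.47 to -0.15 for day 50 against day 10, with -0.39 and -0.15 without cows 1 and 4 at day 10 and -1.47 and -1.15 without cows 2 and 3. It ranged from -1.74 to -0.33 for day 100 against day 10, with -0.33 and -0.38 without cows 1 and 4 at day 10, -1.31 and -1.37 without cows 2 and 3, and -1.52 without cow 3 at day 100. The medians from day 30 have no settled sign: that to day 50 ranged from -0.29 to 0.99 and was -0.16 and -0.03 without cow 1 at day 30 or day 50, and that to day 100 ranged from -0.14 to 1.1 and was -0.14 without cow 3 at day 100. The only called gene was CXCL9, in the comparison of day 100 with day 10.

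CXCL9, a chemokine that draws T and NK cells, stood at 2, -1.19, -1.35 and 2.29 in cows 1 to 4 at day 10. It stood at -3.93, -2.54, -3.41 and -2.88 at day 30, at -2, -3.56, -3.52 and -2.6 at day 50, and at -4.16, -4.08, -2.16 and -3.4 at day 100. All 4 day 10 arrays lay above all 12 later arrays, with cows 1 and 4 far above cows 2 and 3. Such a gap below day 10 was seen in 8.2% of all probes at day 50 and 6.47% at day 100. CXCL9 fell by 3.89 ± 0.79 on the log2 scale from day 10 to day 100 (limma, adjusted p 0.0241), lower in 4 of 4 cows. The difference was -3.63 ± 0.79 at day 30 and -3.36 ± 0.79 at day 50, with adjusted p of 0.0744 and 0.0581.

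The call of CXCL9 rested on several cows. Without cow 1, cow 3 or cow 4 the adjusted p for day 100 was 0.115, 0.0531 and 0.133, with differences of -3.14, -4.92 and -3.29, and without cow 2 it was 0.0426. It was 0.0811 and 0.0723 without cow 1 or cow 4 at day 10, and 0.0511 and 0.0721 without the same cows at day 100. Conversely, CXCL9 was called for day 30 without cow 3 at day 10 (adjusted p 0.043 in limma), and for day 50 without cow 1 or cow 3 at day 100 (adjusted p 0.0497 and 0.0491). A second, dimmer CXCL9 probe of another accession was well above background on 4 of 4 arrays at day 10 and 1 of 4 at day 100, with an adjusted p of 0.0701 in limma for that difference.

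CXCL10 and CXCL11, chemokines for the same receptor, were also highest in cows 1 and 4 at day 10. CXCL10 stood at 3.82, 3.28, 2.02 and 3.79 in cows 1 to 4 at day 10 and at -0.06, 1.91, 0.65 and 1.49 at day 30, with no overlap, and differed by -2.23 ± 0.89 (limma, adjusted p 0.298). At day 100 CXCL10 stood at -0.1, 3.26, 2.41 and 0.31, so cows 2 and 3 were again near their day 10 levels and cows 1 and 4 were not. CXCL11, well above background on 11 of 16 arrays and described after its values were seen, stood at -2.65, -6.47, -6.58 and -1.4 at day 10 and at or below -5.41 on the later arrays. At day 10 all 4 arrays were well above background, but 3 were at day 30 and 2 at each of days 50 and 100, so the size of its difference from day 10 was not resolved, and the adjusted p for day 100 was 0.184 in limma.

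IRF1, the transcription factor at the head of the interferon-gamma programme, stood at 3.22, -0.46, 0.57 and 3.31 in cows 1 to 4 at day 10 and at -0.08, -0.73, 0.44 and -0.18 at day 30. Cows 1 and 4 differed by more than 3 log2 units between these times and cows 2 and 3 by less than 1. The difference over the 4 cows was -1.8 ± 0.57 with an adjusted p of 0.199 in limma.

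GBP4, a guanylate-binding protein of the defence against intracellular microbes, went against the group. It stood at -1.7, -4.46, -2.55 and -0.61 in cows 1 to 4 at day 10, at -2.19, -3.37, -1.9 and -3.1 at day 30, at 0.61, -1.59, 0.63 and 0.88 at day 50, and at 0.74, -4.12, 1.2 and -0.38 at day 100. All 4 cows were higher at day 50 than at day 10, with a difference of 2.46 ± 0.65 (limma, adjusted p 0.0814), and no day 30 array reached a day 50 array. Without cow 2 at day 100, limma called GBP4 for day 50 (2.46 ± 0.53, adjusted p 0.0371) and day 100 (2.34 ± 0.58, adjusted p 0.0358) against day 10. These values are of the brightest probe. The dimmer GBP4 probes gave 1.11 ± 0.63 and 1.66 ± 0.55 for day 50 against day 10 (adjusted p 0.375 and 0.139 in limma). For day 100 they gave 0.91 ± 0.63 and 1.13 ± 0.55 (adjusted p 0.381 and 0.216). By both, the arrays of days 30 and 50 overlapped. GBP5 and IDO1 were each highest in cow 4 at day 10 and lowest in cow 2 at day 10, with ranges from -3.95 to 0.24 and from -7.55 to -2.25.

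In the gamma targets the split between cows at day 10 was complete. Cows 1 and 4 were both above cows 2 and 3 for 7 of 7 gamma targets, 5 of 5 MHC class I loading genes, 3 of 3 transcription factors and 9 of 10 modifiers, but for 6 of 21 antiviral effectors, where 28.1% of all probes showed this order. The median level of the gamma targets relative to each gene's mean was 2.33, -1.35, -0.32 and 2.55 in cows 1 to 4 at day 10, between -1.03 and -0.54 at day 30, between -1.18 and 0.98 at day 50 and between -1.18 and 0.69 at day 100.

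Several lists of cell type markers also divided cows 1 and 4 from cows 2 and 3 at day 10, and others did not. At day 10 the epithelial list had medians of 1.15, -2.9, -1.1 and 0.98 in cows 1 to 4 and the smooth muscle list, with 7 of 7 genes tested and all above background on 16 arrays, -2.06, 1.65, 1.2 and -1.92, so cows 1 and 4 were also above cows 2 and 3 in epithelial markers and below them in smooth muscle markers. The T and NK cell list, with 12 of 12 listed genes tested and 7 well above background on all 16 arrays, had medians of 1.01, -1.37, -0.57 and 1.72 in cows 1 to 4 at day 10, and between -0.65 and 0.34 at day 30. The neutrophil list, with 5 of 7 listed genes tested, had medians of 5.57, 1.11, 0.45 and 5.5 at day 10 and between -2.04 and -0.12 at day 30. The macrophage and monocyte list, with 10 of 10 tested, had medians of 1.61, 1.01, 1.48 and 2.5 at day 10. Limma called 10 of its 10 genes lower at day 100 than at day 10 (3.14% of all probes), with a median difference of -2.32. Unlike the gamma targets, the macrophage list was high at day 10 in all 4 cows. The endothelial list, at 0.34, -0.79, 0.54 and 0.43, and the stromal list, at 0.56, -0.06, 0.26 and 0.25, lacked the split at day 10. In cow 1 at day 100 the gamma targets stood at -0.72, the T and NK cell list at 0.66 and the neutrophil list at 2.01. IFNG, which encodes interferon gamma itself, was well above background on 8 of 16 arrays, 1 of them at day 10, and its highest levels were -3.85 in cow 4 and -5.16 in cow 1 at day 10, against -7.36 and -7.71 in cows 3 and 2. The part of these cells and tissue layers in the levels of the gamma targets was not tested.

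**Figure D3:**
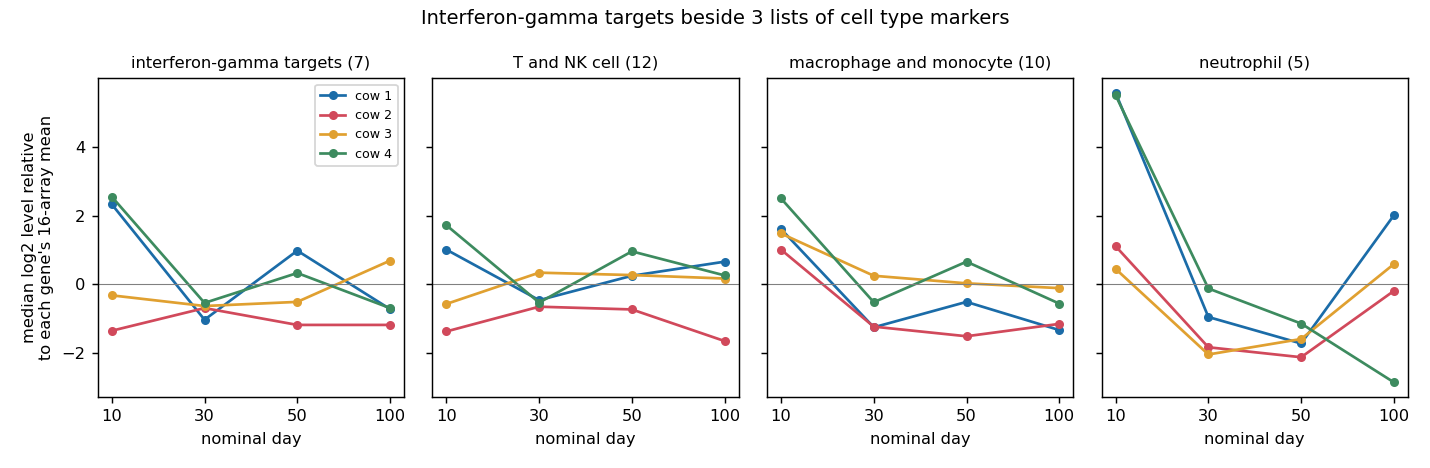
Median log2 level, relative to each gene's own mean over 16 arrays, of the 7 interferon-gamma targets and of 3 marker lists (number of genes in brackets) in each cow at the 4 nominal days. Cows 1 and 4 stand above cows 2 and 3 at day 10 for the gamma targets, at 2.33 and 2.55 against -1.35 and -0.32, and for the T and NK cell and neutrophil lists.

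The MHC class I loading genes supply peptides to the class I molecules that show them to T cells, and all 5 were measured. Their median difference was -0.54 for day 30 against day 10, 0.65 for day 50 against day 30 and 0.65 for day 100 against day 30. None was called, and at the unadjusted threshold 1 passed, TAP2, higher at day 100 than at day 30 (5.55% of all probes). With a cow or an array left out, the first median ranged from -0.96 to -0.08, with -0.16 and -0.21 without cow 4 at day 10 or day 30, -0.34 and -0.92 without cows 1 and 2 at day 30, and -0.08 without cow 4. The others ranged from 0.38 to 1.01 and from 0.31 to 1.04, both with 0.38 without cow 1 at day 30, and the former with 0.4 without cow 4 at day 30. Cow took 45.4% of their variance and time 16.6%.

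TAP1, a chain of the peptide transporter, stood at -1.55, -4.68, -3.09 and -1.54 in cows 1 to 4 at day 10, at -3.85, -3.8, -2.93 and -5.22 at day 30, at -2.1, -3.31, -2.5 and -2.24 at day 50, and at -0.6, -4.58, -3.4 and -3.05 at day 100. Cow 1 was highest at day 100 and cow 4 at day 10, and cow 3 stayed within 1 log2 unit. TAP1 was higher in 4 of 4 cows at day 50 than at day 30, with a difference of 1.41 ± 0.68 and an adjusted p of 0.555 in limma.

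TAP2, the other chain, reached 4.24 in cow 1 at day 100 and was lowest in cow 4 at day 30 with -0.03. Further probes that the array names TAP2 map to another locus in the reference table, so the values here are those of the probe with the TAP2 accession. NLRC5, the activator of class I transcription, ranged from -5.31 in cow 2 at day 100 to -1.79 in cow 4 at day 10, with a difference of -1.15 ± 0.53 for day 30 against day 10 (limma, adjusted p 0.359). B2M, the light chain of class I, ranged from 5.14 to 7.18, with means of 6.06 ± 0.68, 5.89 ± 0.36, 6.13 ± 0.17 and 6.4 ± 0.61 (SD, n = 4) at days 10, 30, 50 and 100. TAPBP, the bridge between transporter and class I, was highest in cow 1 at day 100 with 1.15 and lowest in cow 4 at day 30 with -1.8.

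The epithelial list had medians of 2.43, -2.82, 0.95 and 0.85 in cows 1 to 4 at day 100 and -1.92 in cow 4 at day 30. TAP1 and TAP2 were likewise highest in cow 1 at day 100 and lowest in cow 4 at day 30, but the epithelial list was lowest in cow 2. Its part in these levels was not tested.

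**Figure D4:**
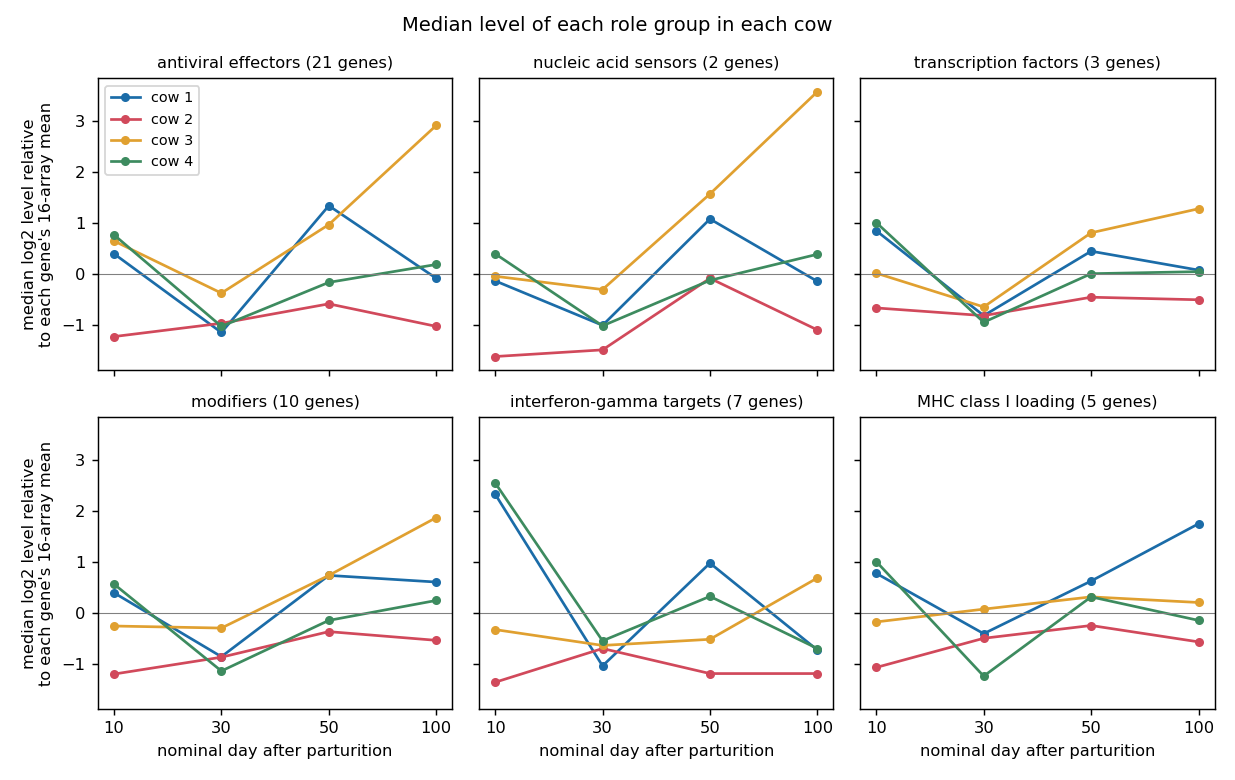
Median log2 level, relative to each gene's own mean over 16 arrays, of the genes of each role group in each cow at the 4 nominal days, which are spaced evenly on the axis. At day 100 cow 3 stands at 2.91 for the antiviral effectors and at 0.21 for the MHC class I loading genes, where cow 1 is highest with 1.75.

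Cow 3 at day 100 stood apart within the list. It was the highest of the 16 arrays for 19 of 21 antiviral effectors, 2 of 2 sensors, 2 of 3 transcription factors and 7 of 10 modifiers, but for 1 of 7 interferon-gamma targets and 1 of 5 MHC class I loading genes, where the share over all probes was 9.38%. In all, it was highest for 32 of the 48 genes. These counts rest on the brightest probe of each gene. Another array was highest by a further probe of IRF9, IFI35, UBE2L6, PARP14, SAMD9 and PARP9, among others. By the further probes of ISG15, MX1, IFI27, USP18, IFIH1 and DDX58, cow 3 at day 100 was again highest. The medians of its levels relative to each gene's mean were 2.91 for the antiviral effectors, 3.57 for the sensors, 1.28 for the transcription factors, 1.87 for the modifiers, 0.69 for the gamma targets and 0.21 for the loading genes.

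The size varied by gene. The genes named here other than IFIH1 and IFI6 were chosen after their values were seen. IFI44 was 4.38 log2 units higher in cow 3 at day 100 than in the next cow at that time, ISG15 3.96, USP18 3.67, RSAD2, the enzyme viperin, 3.6, and IFIT1 and IFIH1 3.53. IFI6 was 0.27 higher. Another cow was above cow 3 at that time for the other 9 genes, LGALS3BP, TRIM21, TRIM25, PARP12, CXCL10, TAP1, TAP2, TAPBP and NLRC5. Within cow 3, ISG15 was at 2.36, 0.16, 3.45 and 5.97 over days 10, 30, 50 and 100, RSAD2 at -1.25, -2.3, -0.29 and 2.38, and IFIT1 at -6.34, -6.25, -4.62 and -1.95. All 3 were thus higher at day 50 than at day 30 in this cow and higher again at day 100.

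This array also had the lowest median signal of the 16, 51.06. Cow 2 at day 100, with nearly as low a median of 54.79, was low for the antiviral effectors, with a median level of -1.02. This cow was also low for them at days 10, 30 and 50, at -1.22, -0.96 and -0.58, where the median signals were 103.8, 104 and 98.45. The count of 32 genes was the same after quantile normalization, and 28 after another background correction. It was also 32 in the authors' deposited table, but that table centres each probe of the same values, which leaves the order of the arrays unchanged. The T and NK cell list stood at 0.17 there, the macrophage list at -0.11, and of the trophoblast list CSH2 was not well above background on any array, PAG2 on 2 and PAG1 on 7, with PAG1 at -6.8 in cow 3 at day 100 and between -8.4 and -5.75 elsewhere. The other measured genes of that list were PRP1, well above background on 15 arrays, at -4.4 in cow 3 at day 100 and between -5.18 and -3.77 elsewhere, and TFAP2C, on all 16, at 0.13 there and between -4.51 and 3.62 elsewhere, highest in cow 1 at day 10. IFNT was not analysed here. The part of array signal, cell make-up or pregnancy in the levels of cow 3 at day 100 was not tested.

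**Figure D5:**
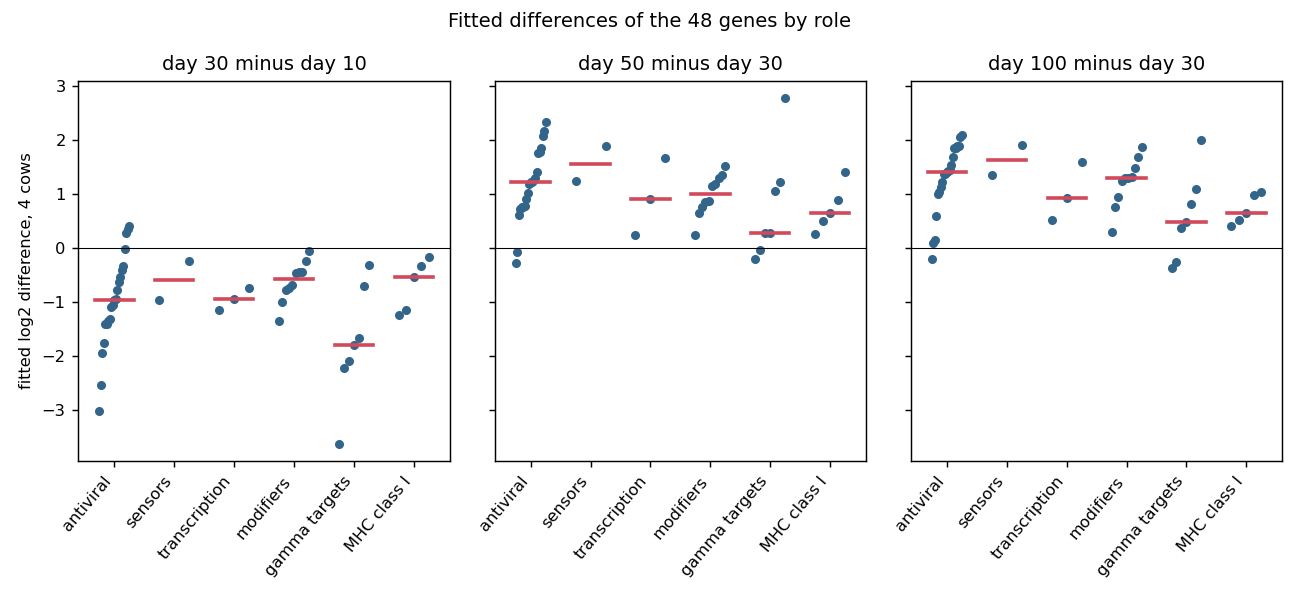
Fitted log2 differences of the 48 genes (points) by role group, with the group median as a red line, for day 30 minus day 10, day 50 minus day 30 and day 100 minus day 30, over 4 cows. The antiviral effectors have medians of -0.96, 1.22 and 1.4 and the interferon-gamma targets -1.8, 0.28 and 0.47, and the 3 panels share the day 30 arrays.

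Outside the list, 50 further genes of interferon production, reception and signalling were looked up, and 38 were tested. Limma called 1 of them for day 30 against day 10, 2 for day 50 and 3 for day 100, all lower than at day 10. Of all probes, 0.407%, 1.06% and 3.14% were called lower in these comparisons. None was called between the later times, where 5 were higher at day 50 (4.97% of all probes) and 5 at day 100 (5.55%) than at day 30 at the unadjusted threshold. The called genes were sensors and a regulator found in myeloid cells. TLR7, an endosomal receptor for single-stranded RNA, fell by 2.38 ± 0.26 to day 30, by 2.02 ± 0.26 to day 50 and by 2.31 ± 0.26 to day 100, with adjusted p of 0.0025, 0.00743 and 0.0021 in limma.

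TLR8, its relative, was well above background on 3 of 4 arrays at day 10 and 0 of 4 at day 100. Its fitted fall to day 100 had an adjusted p of 0.0127 in limma. The size of the fall was estimated only as a rough lower bound, 2.71-fold. This bound sets the day 10 mean against, on each day 100 array, the lowest signal among probes well above background or the probe's own where higher. It leaves out the spread between cows, and the day 10 mean includes the array not well above background. IRF8, a transcription factor of monocytes and dendritic cells, fell by 1.66 ± 0.37 to day 50 and by 2.26 ± 0.37 to day 100 (adjusted p 0.0488 and 0.0114 in limma). For TLR7 the number of arrays with a signal clear of background was 3 at day 10, 2 at day 30, 3 at day 50 and 2 at day 100, which limits how well the size of its differences is known. Of the macrophage list, 6, 6 and 10 of 10 genes were called lower at days 30, 50 and 100 than at day 10 (0.407%, 1.06% and 3.14% of all probes). The part of macrophages in the calls of TLR7, TLR8 and IRF8 was not tested. The receptor chains IFNAR1, IFNAR2, IFNGR1 and IFNGR2 were well above background on all 16 arrays, and none of their differences was called. IFNGR1 stayed between 2.29 and 3.06 on the 16 arrays.

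Different probes of a gene mostly had the same sign. Among the 32 genes with further tested probes, 51 such probes had the sign of the brightest probe in 50 cases for day 30 against day 10, 47 for day 50 against day 30 and 48 for day 100 against day 30, but in 38 for day 100 against day 10 and 31 for day 100 against day 50, where the differences were small. PLAC8 probes fell into those of the RefSeq genes PLAC8A and PLAC8B, and the brightest, with a range from 0.1 to 4.61, was that of PLAC8B. Its differences from day 10 were -0.08 ± 0.48 at day 50 and 0.64 ± 0.48 at day 100, and it was highest in cow 3 at day 100. The brightest PLAC8A probe gave -1.61 ± 0.74 and -1.28 ± 0.74 and was highest in cow 4 at day 10, with 1.99. None of these differences was called.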

How the data were processed

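The authors deposited scanner files with linear intensity values for 45220 spots per array, background-subtracted and detrended within each array by Agilent Feature Extraction 11.5.1.1, per the file headers; the submitters' processing notes name version 10.5.1.1. Other deposited columns mark spots as nonuniform, saturated or well above background, per the file headers. A deposited table of log2 values by the authors followed the scanner values after the shift by each array's 75th percentile and a centring of every probe on its median over arrays, with column medians from -0.155 to 0.215.

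Control spots and nonuniform spots (4 to 125 per array) were left out, log2 processed signals were set relative to the array's 75th percentile, and spots of a probe were averaged, giving 43653 probes, of which 33174 were well above background on at least 4 arrays and were tested. Limma 3.58.1 in R 4.3.3 fitted time and cow, with two-sided moderated statistics and Benjamini-Hochberg adjustment. The number of arrays limits the precision. Cows were paired by animal, as the labels state. Deviations from the time means correlated with a median of 0.13 within cows (24 pairs) and -0.039 between cows (72 pairs).

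The genes, their role groups and the marker lists were chosen with earlier results of these data known. The genes named with full values were the called ones and, in each role group, the 3 with the lowest F test p and the one with the highest mean level; other genes with values (among them ISG15, ISG20, USP18, RSAD2, IFIT1, IFI44, HERC5, HERC6, GBP5, IDO1, CXCL11, TAPBP, PLAC8 and the genes found under other names) were chosen after their values were seen. Lists are described by counts and medians without a test. The analysis was tested on simulated data. Alternatives were normexp background correction, quantile normalization, other filters, the authors' table, no term for cow, the 8 arrays of a comparison alone, the mean of a gene's probes, and each cow or array left out. Coordinates are the files' own, and their headers name HGSC Btau_3.1 as the build; exons and promoters at these positions were not analysed here.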

Additional observations from a re-analysis of the deposited data

Results flagged for a closer look

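Among 80 levels of the 20 genes named by rule (each gene at each time, 4 cows), 3 had a cow far from the other 3 by Dixon's criterion, which chance alone meets in about 1 of 20 groups. MX2 at day 30 was high in cow 3 with -4.73, where the next cow stood at -6.38. At day 50 cow 2 was low for STAT2 with -0.21, where the next cow stood at 0.34, and for GBP4 with -1.59, where the next cow stood at 0.61.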

How the results depend on the processing

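The counts of called genes were small, so a single gene moved them. For day 50 against day 10, where 0 genes were called, 2 were with normexp background correction (CXCL9 and GBP4), 2 with only the 8 arrays of the comparison (the same genes), 1 with the filter at all 16 arrays (CXCL9) and 1 with the mean of a gene's probes (CXCL9). For day 100 against day 10, where 1 was called, the count was 2 with normexp and 0 with only the 8 arrays. For day 30 against day 10 it was 1 with the mean of a gene's probes, and in the F test 2 with normexp (PARP12 and GBP4). With a cow or an array left out, counts ranged from 0 to 1 for days 30 and 50 against day 10 and for the F test, from 0 to 2 for day 100 against day 10, and were 0 between the later times. GBP4 was called for days 50 and 100 against day 10 and in the F test without cow 2 at day 100. The cause was not tested. No called value changed sign.

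Medians over the 48 genes moved by less than their SD between cows under every alternative. With a cow or array left out they ranged from -1.31 to -0.51 for day 30 against day 10, -0.01 to 0.56 for day 50 against day 10, -0.15 to 0.66 for day 100 against day 10, 0.76 to 1.44 for day 50 against day 30, 0.65 to 1.64 for day 100 against day 30 and -0.4 to 0.33 for day 100 against day 50. Without the block for cow, which pairs the arrays of an animal, CXCL9 was still the 1 gene called for day 100 against day 10. A block for slide could not be fitted, because each cow had its own slide. Signal over background limits the dim genes OAS2, CXCL11 and IFIT1.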
